A study of Mus musculus with 12 samples.

Results

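Interferon-stimulated and interferon signalling genes were followed through the mouse heart 8 h after experimental infarction. The set held 35 genes listed by symbol, among them 2 interferon-induced chemokines, 4 receptor chains, 8 transcription factors, 3 genes of RNA sensing, 11 antiviral effectors, 5 interferon-inducible GTPases and 2 genes of antigen loading. A member was measured by the probe set that carried its symbol alone and was brightest on average, and 32 of the 35 had such a probe set among the 12393 genes of the array. Isg15, a ubiquitin-like modifier, was present only on a probe set shared with another gene. Ifi44 and Xaf1, both interferon-induced, had none, and no value is given for these 3. Dhx58, the RNA sensor LGP2, had a mean signal of 5.51, under the value of 17 taken here as near background, and was not tested. The other 31 members were among the 8101 genes tested.

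Heart RNA came from 12 C57Bl/6 mice, 3 in each of 4 groups, with 1 array per mouse. Myocardial infarction (MI) was produced by ligation of the coronary artery that supplies the front of the left ventricle (the LAD), and control mice had sham surgery. Wake groups were operated between ZT13 and ZT15 and collected at ZT23, and sleep groups were operated between ZT1 and ZT3 and collected at ZT11 (ZT, zeitgeber time, hours of the light cycle). The labels call the MI tissue infarcted myocardium and do not say which part of the sham hearts was used. Hour of surgery and hour of collection changed together and cannot be told apart. In such bulk tissue, fewer cells of a type and less RNA per cell cannot be told apart either.

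Interferons are secreted cytokines that act through paired receptor chains, Ifnar1 with Ifnar2 for type I and Ifngr1 with Ifngr2 for type II interferon. The receptors signal through JAK kinases to STAT factors, of which Stat2 joins Irf9 in the complex that binds interferon-stimulated response elements (ISRE), while type II interferon acts mainly through gamma-activated sites (GAS). The targets include antiviral effectors, GTPases, peptide transporters and chemokines, and in the infarcted heart a type I interferon program is known in infiltrating leukocytes. NF-kB sites are also known in promoters of inflammatory chemokines.

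The promoters of the 4 members that passed the test for infarction, and of Ifit1, the member that varied most between mice, are shown to place these elements. Each is the 250 bases before the start of the gene from RefSeq (GRCm38.p6), read along the gene's strand, with matches in capitals. The motifs searched on both strands were GAAANNGAA (ISRE core), TTCNNNGAA (GAS) and GGANTTTCC (NF-kB). Cxcl9 is at chr5:92328080-92328329 on the minus strand, Cxcl10 at chr5:92348890-92349139 on the minus strand, Irf8 at chr8:120736108-120736357 on the plus strand (the first of 2 windows listed for it), Gbp2 at chr3:142620413-142620662 on the plus strand and Ifit1 at chr19:34640639-34640888 on the plus strand.
Cxcl9: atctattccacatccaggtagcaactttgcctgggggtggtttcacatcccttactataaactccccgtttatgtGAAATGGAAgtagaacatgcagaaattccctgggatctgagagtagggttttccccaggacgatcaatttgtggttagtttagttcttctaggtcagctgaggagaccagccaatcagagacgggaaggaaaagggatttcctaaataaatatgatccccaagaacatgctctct
Cxcl10: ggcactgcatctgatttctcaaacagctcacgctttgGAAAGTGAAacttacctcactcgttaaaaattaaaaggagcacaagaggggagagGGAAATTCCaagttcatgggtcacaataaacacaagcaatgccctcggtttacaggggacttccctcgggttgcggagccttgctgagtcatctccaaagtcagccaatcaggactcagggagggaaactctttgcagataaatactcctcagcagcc
Irf8: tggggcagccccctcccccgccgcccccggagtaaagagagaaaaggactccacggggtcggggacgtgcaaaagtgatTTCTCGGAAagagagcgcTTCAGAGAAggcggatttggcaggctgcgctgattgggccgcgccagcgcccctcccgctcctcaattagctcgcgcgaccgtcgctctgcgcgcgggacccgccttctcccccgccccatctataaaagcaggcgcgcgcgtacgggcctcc
Gbp2: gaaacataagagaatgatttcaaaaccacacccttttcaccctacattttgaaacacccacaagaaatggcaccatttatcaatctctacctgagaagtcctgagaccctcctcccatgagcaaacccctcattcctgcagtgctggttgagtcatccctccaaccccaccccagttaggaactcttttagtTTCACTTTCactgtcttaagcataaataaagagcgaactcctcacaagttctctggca
Ifit1: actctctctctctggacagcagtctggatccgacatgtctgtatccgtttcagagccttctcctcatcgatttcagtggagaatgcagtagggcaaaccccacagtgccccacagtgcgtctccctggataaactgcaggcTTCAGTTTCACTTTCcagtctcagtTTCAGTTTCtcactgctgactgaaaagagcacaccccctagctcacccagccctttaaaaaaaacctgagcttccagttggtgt

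In Cxcl9 the ISRE core began 175 bases before the start. Cxcl10 had an ISRE core at 213 bases and an NF-kB match at 158 bases before its start. Irf8 had GAS matches at 171 and 153 bases, and Gbp2 an ISRE core at 58 bases. Ifit1 carried 3 ISRE cores, at 109, 103 and 84 bases, of which the first and second overlap. RefSeq windows that also took in the 50 bases after the start were found for 33 members (40 windows). The ISRE core was present in 40% of these windows, against 8.56% of all 32851 windows of that length, GAS in 25% against 8.30% and NF-kB in 7.5% against 1.25%. In 1 member window, matches of 2 motifs overlapped. A match is a description of the sequence and was not tested for binding.

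Infarction was compared with sham over both times, at each time, and between the times. Over both times 3 of the 31 members tested rose with infarction, the chemokines Cxcl9 and Cxcl10 and the transcription factor Irf8, and 1 fell, the GTPase Gbp2. The other 27 did not pass (limma, adjusted p under 0.05 over all 8101 genes). Of all genes tested, 8.49% were called higher and 13.6% lower, so neither count sets the members apart from the rest of the array. The median log2 difference was -0.02 in the members and -0.06 in all genes. At unadjusted p under 0.05 the members numbered 6, with Ifngr2 and Irf2 added, against 36.4% of all genes. Differences are of log2(signal + 16), which understates the change of dim genes.

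**Figure D1:**
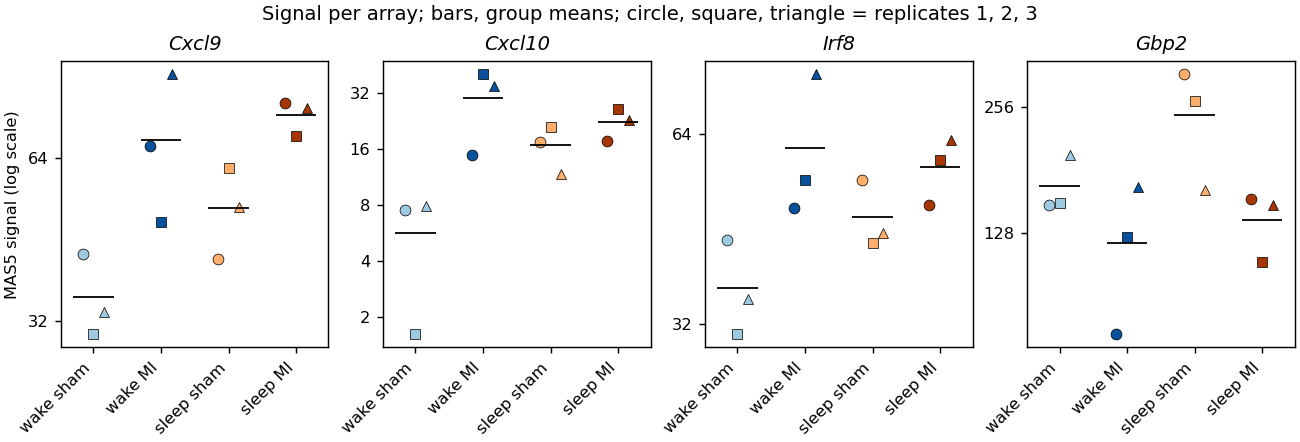
MAS5 signal (log axis) of Cxcl9, Cxcl10, Irf8 and Gbp2 on each of the 12 arrays, with replicates 1, 2 and 3 as circle, square and triangle and bars at the mean of 3 arrays. Cxcl9, Cxcl10 and Irf8 lay higher in wake MI than in wake sham with no overlap, and Gbp2 lay lower in sleep MI than in sleep sham with no overlap.

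Cxcl9, a ligand of the chemokine receptor CXCR3 on T cells, had signals of 67.3, 48.8 and 91.4 in wake MI (replicates 1, 2 and 3) and 42.7, 30.3 and 33.3 in wake sham. In sleep MI it had 80.7, 70.3 and 79.2, and in sleep sham 41.7, 61.3 and 52.0. At both times every infarcted heart was above every sham heart. The difference was 0.58 (SE 0.12, adjusted p = 0.00503) over both times and 0.70 (SE 0.18, adjusted p = 0.0147) in the wake groups, a fold of 1.63. In the sleep groups it was 0.46 (95% interval 0.09 to 0.84) and did not pass (adjusted p = 0.196). The wake call was lost when wake MI replicate 3 (adjusted p = 0.0518) was left out, and likewise for wake sham replicate 3 (adjusted p = 0.0508).

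Cxcl10, another interferon-induced ligand of CXCR3, was dim throughout. Its mean over the 12 arrays passed the level filter for testing (signal 16.8) only through the wake MI values, so its calls are not independent of that filter. Without the filter it was still called higher over both times and in the wake groups. Its signals were 14.9, 40.3 and 34.9 in wake MI, 7.54, 1.62 and 7.90 in wake sham, 17.7, 26.3 and 22.8 in sleep MI, and 17.5, 20.9 and 11.7 in sleep sham. The wake MI hearts were all above the wake sham hearts, whose values were near background, and the sleep groups overlapped. The difference was 1.05 (SE 0.22, adjusted p = 0.00580) in the wake groups and 0.64 (SE 0.16, adjusted p = 0.0104) over both times. With signals this low its size depends on the constant added before the log, and no fold is given. With constants of 64 and 1 in place of 16 the wake difference was 0.42 and 2.29 (adjusted p = 0.00751 and 0.00673). In the sleep groups it was 0.23 (95% interval -0.24 to 0.70, adjusted p = 0.642). The group means ran from 5.69 ± 3.53 (SD, n = 3) in wake sham through 16.7 ± 4.64 in sleep sham and 22.3 ± 4.30 in sleep MI to 30.0 ± 13.4 in wake MI, and the ranges of the last 3 groups overlapped.

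Irf8, a transcription factor of monocytes and dendritic cells, had 48.9, 54.2 and 79.7 in wake MI, 43.6, 30.8 and 35.1 in wake sham, 49.5, 58.3 and 62.7 in sleep MI, and 54.1, 43.0 and 44.7 in sleep sham. Wake MI lay above wake sham with no overlap, by 0.54 (SE 0.16, adjusted p = 0.0313), and the sleep groups overlapped, at 0.20 (95% interval -0.14 to 0.54). Over both times the difference was 0.37 (SE 0.11, adjusted p = 0.0309). A second, dimmer Irf8 probe set put the difference elsewhere, 0.09 in the wake groups and 0.58 in the sleep groups. The call over both times ended when any 1 of 7 arrays was left out (adjusted p = 0.0586 to 0.0683), namely wake MI replicate 3 and replicates 2 and 3 of each other group. The wake call was lost when replicate 3 of wake MI, or replicate 2 or 3 of the sham group, was left out (adjusted p = 0.0890 to 0.112). Without the level filter Irf8 had adjusted p = 0.0558 over both times and 0.0576 in the wake groups, and the wake call was also lost with the mean of both probe sets (0.102) or a fit to the wake arrays alone (0.0730).

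Gbp2, a guanylate-binding protein that acts on vacuoles of intracellular microbes, ran the other way. It had 72.9, 125 and 165 in wake MI, 149, 151 and 196 in wake sham, 154, 109 and 149 in sleep MI, and 307, 265 and 162 in sleep sham. The sleep groups did not overlap, the wake groups did, and sleep sham replicates 1 and 2 were the brightest arrays. Gbp2 fell by 0.59 on the log2 scale over both times (SE 0.18, adjusted p = 0.0287). Its differences were -0.45 in the wake groups (adjusted p = 0.225) and -0.73 in the sleep groups (adjusted p = 0.151), and its second probe set gave -0.14 and -0.51. The probe set used, whose name ends in _x_at, is of a kind that can bind related sequences, so other Gbp genes could share its signal. Its call was lost when any 1 of 5 arrays was left out (adjusted p = 0.0528 to 0.0727), namely wake MI replicate 1, sham replicate 3 of the wake time, sleep MI replicate 2, and replicates 1 and 2 of sleep sham.

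Other measures moved with infarction beside these members. The beta-actin 3′ to 5′ signal ratio, a measure of RNA integrity, was 2.17 to 3.31 in wake MI and 1.77 to 1.81 in wake sham with no overlap, and 2.09 to 2.92 in sleep MI against 1.94 to 2.49 in sleep sham. With that ratio as a covariate the Cxcl9, Cxcl10 and Irf8 calls ended, over both times and in the wake groups alike. Over both times the adjusted p was then 0.109 for Cxcl9 (difference 0.43), 0.117 for Cxcl10 (0.56) and 0.473 for Irf8 (0.16). In the wake groups Cxcl10 was then at 0.93 (SE 0.32), Cxcl9 at 0.46 (SE 0.24) and Irf8 at 0.20 (SE 0.19). Gbp2 remained called over both times, at -0.93 (adjusted p = 0.0160), and its differences were -0.99 in the wake groups (adjusted p = 0.0872) and -0.87 in the sleep groups (adjusted p = 0.0649). The summed signal of 9 neutrophil markers on the array (7 of 8 tested higher over both times) was 1343 to 3256 in wake MI and 274 to 791 in wake sham, and 1741 to 3144 in sleep MI and 516 to 2038 in sleep sham. Monocyte and macrophage markers, 1 higher of 12 tested, summed to 3216 to 3764 in wake MI and 3120 to 4702 in wake sham, with sleep groups at 3562 to 4132 and 3811 to 3891. Of 10 T, B and NK lymphocyte markers on the array 0 passed the level filter, and their sums were 25.0 to 65.6 over all 12 arrays. Of 8 dendritic cell markers 2 were tested and 1 was higher, Batf3. The other, Zbtb46, was lower in wake MI (24.5, 37.1 and 18.7) than in wake sham (37.2, 38.6 and 43.4), and overlapped at the sleep time. The sums of all 8, most of them under the level filter, were low but did not overlap at either time. They were 92.9 to 109 in wake MI against 79.9 to 87.6 in wake sham. In sleep MI they were 111 to 115, against 72.3 to 104 in sleep sham. Of single genes tested, 35.1% did not overlap in the wake groups and 23.5% in the sleep groups. Fibroblast markers, 3 lower of 10 over both times, summed to 7050 to 9161 in wake MI against 9754 to 15088 in wake sham, and overlapped at the sleep time (9444 to 12205 and 9249 to 13008). Of 5 atrial muscle markers tested, 3 were lower in the wake groups and 0 were called over both times. Their list summed to 1222 to 1719 in wake MI against 1880 to 14971 in wake sham, with no overlap. At the sleep time the atrial sums overlapped, at 2139 to 3239 in sleep MI and 2226 to 7415 in sleep sham. Endothelial markers, 4 higher and 1 lower of 9 tested over both times, had sums that overlapped at both times. These were 2996 to 4214 in wake MI and 3033 to 3515 in wake sham. In sleep MI they were 2991 to 3360, and in sleep sham 2796 to 3295. Of 10 cardiomyocyte markers 1 was higher over both times, and their sums overlapped at both times. The part of any of these cells in the members' differences was not tested.

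In the wake groups alone the same 3 genes Cxcl10, Cxcl9 and Irf8 were called higher and 0 members lower, against 7.79% higher and 10.7% lower of all genes. At unadjusted p under 0.05 there were 4 members, against 33.0% of all genes. The fourth was Tapbp, which holds peptide transporters to empty MHC class I (difference 0.26, adjusted p = 0.127). The 2 groups did not overlap in 6 members, each higher in wake MI: Cxcl9, Cxcl10, Irf8, Tapbp, Trim25 and Igtp. Of all genes, 35.1% did not overlap in this comparison. In the sleep groups 0 of 31 members were called, against 2.65% of all genes, and 2 were under an unadjusted p of 0.05 (Gbp2 and Cxcl9), against 17.1% of all genes. These were also the 2 members whose sleep groups did not overlap, against 23.5% of all genes.

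**Figure D2:**
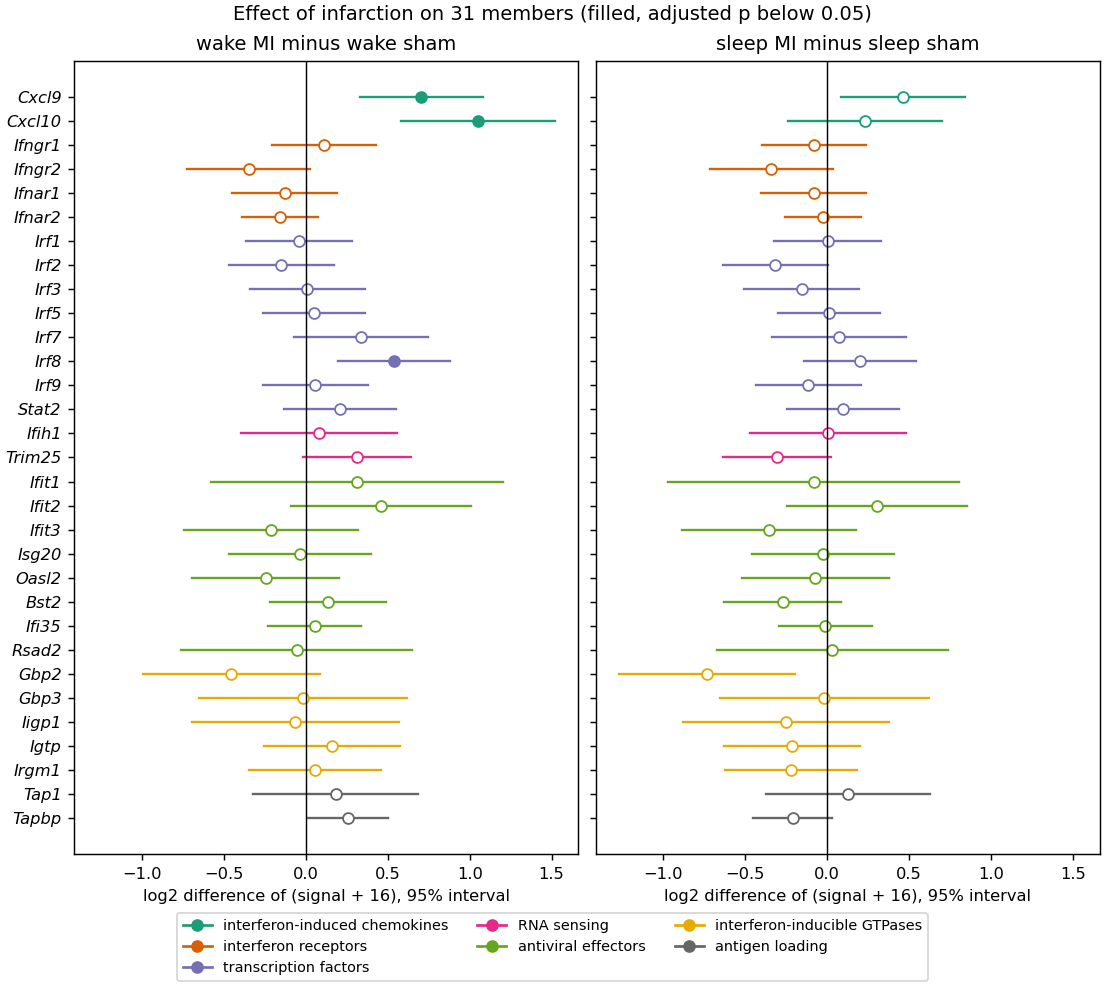
Log2 difference of (signal + 16), infarcted minus sham, for each of the 31 members tested, with 95% intervals, at the wake time (left) and the sleep time (right), coloured by role; filled points have an adjusted p below 0.05. Filled points are Cxcl9, Cxcl10 and Irf8 in the wake panel, and no point is filled in the sleep panel.

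The receptor chains did not pass in either comparison. Ifngr2, the signalling chain of the type II receptor, had 471, 409 and 331 in wake MI against 566, 410 and 583 in wake sham, and 440, 438 and 350 in sleep MI against 501, 431 and 649 in sleep sham. The groups overlapped at both times, and the difference over both was -0.35 (SE 0.12, adjusted p = 0.0597), while a second probe set gave -0.01. Leaving out replicate 1 of wake MI, or replicate 2 of either sham group, brought it past the threshold, at -0.42 to -0.40. Ifngr1, the ligand-binding chain, differed by 0.02 (95% interval -0.21 to 0.24), Ifnar1 by -0.11 (-0.33 to 0.12) and Ifnar2 by -0.09 (-0.26 to 0.07).

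Among the other transcription factors, Irf7, the amplifier of type I interferon transcription, had 50.1, 93.5 and 86.6 in wake MI against 56.9, 48.2 and 62.6 in wake sham. In sleep MI it had 70.9, 54.0 and 91.5, against 66.3, 69.9 and 63.3 in sleep sham. Wake MI replicate 1 lay among the sham values while the other wake MI hearts were above them, and the difference was 0.34 (95% interval -0.07 to 0.75) in the wake groups. Irf2, a repressor at the elements that Irf1 activates, differed by -0.23 over both times (adjusted p = 0.129). Irf1 differed by -0.02 (95% interval -0.25 to 0.21), Irf3, activated by viral nucleic acid, by -0.07 (-0.32 to 0.17), Irf5, of inflammatory macrophages, by 0.03 (-0.19 to 0.25), Irf9 by -0.03 (-0.26 to 0.20) and Stat2 by 0.15 (-0.09 to 0.39).

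Ifih1, the long-RNA sensor MDA5, differed by 0.04 over both times (95% interval -0.29 to 0.38). Trim25, a ubiquitin ligase of RNA sensing, had 237, 258 and 340 in wake MI against 218, 219 and 219 in wake sham, but 188, 192 and 269 in sleep MI against 272, 302 and 234 in sleep sham. It was higher in every infarcted heart than in every sham heart at the wake time, and the sleep groups overlapped with infarcted hearts mostly lower. The differences were 0.31 (adjusted p = 0.171) and -0.31 (adjusted p = 0.325), and average to 0.00 over both times. With the beta-actin covariate the wake value of Trim25 was -0.09. Dhx58 lay between 0.399 and 9.78 on the 12 arrays. Tap1, the peptide transporter, differed by 0.15 (95% interval -0.20 to 0.51) and Tapbp by 0.02 (-0.15 to 0.19) over both times.

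None of the 8 antiviral effectors tested passed in any comparison of groups, and the intervals were wide. Ifit1, which binds viral RNA lacking a host cap, had 26.7, 158 and 119 in wake MI and 70.9, 55.6 and 67.8 in wake sham. In sleep MI it had 67.5, 95.5 and 124, and in sleep sham 113, 150 and 56.2. Wake MI held both the lowest and the highest of all 12 values, 5.91-fold apart, and the difference was 0.31 (95% interval -0.58 to 1.20) in the wake groups. It was -0.08 without wake MI replicate 2 and -0.19 with the beta-actin covariate.

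Ifit2, of the same family, had 52.8, 135 and 131 in wake MI against 74.6, 62.0 and 67.4 in wake sham, and 141, 79.7 and 103 in sleep MI against 74.5, 97.3 and 76.6 in sleep sham. Replicate 1 was again the one wake MI heart under the wake sham hearts, and the difference over both times was 0.38 (95% interval -0.01 to 0.77, adjusted p = 0.143). Rsad2, the antiviral enzyme viperin, had 141, 406 and 379 in wake MI and 315, 285 and 278 in wake sham, and replicate 1 was again below all sham hearts of that time. In sleep MI it had 230, 186 and 437, and in sleep sham 251, 302 and 231, and its difference over both times was -0.01 (95% interval -0.51 to 0.49). Ifit3, the partner of Ifit1, differed by -0.28 (95% interval -0.66 to 0.09), Isg20, an exonuclease, by -0.03 (-0.33 to 0.28), Oasl2, of the oligoadenylate synthetase family, by -0.16 (-0.48 to 0.16), Bst2 (tetherin, which holds budding virus at the membrane) by -0.07 (-0.32 to 0.18) and Ifi35 by 0.02 (-0.18 to 0.22).

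Of the GTPases beside Gbp2, Igtp (Irgm3) had 197, 191 and 205 in wake MI against 175, 173 and 178 in wake sham, and 186, 217 and 188 in sleep MI against 254, 325 and 147 in sleep sham. The wake groups did not overlap and were tight, while the sleep sham hearts spanned the whole range, and the difference over both times was -0.03 (95% interval -0.32 to 0.27). Iigp1, which acts on parasite vacuoles, had 420, 342 and 590 in wake MI against 337, 565 and 510 in wake sham, and 489, 667 and 468 in sleep MI against 730, 959 and 372 in sleep sham. Sleep sham again held both the highest value and one of the lowest, and the difference over both times was -0.16 (95% interval -0.60 to 0.29). Gbp3 differed by -0.02 (95% interval -0.47 to 0.43) and Irgm1, a regulator of the other family members, by -0.08 (-0.37 to 0.20).

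Between the wake and sleep groups no member was called. For infarcted hearts 0 of 31 passed, against 0.0741% of all genes, and 2 were under an unadjusted p of 0.05, against 6.67% of all genes. These were Tapbp (wake minus sleep 0.31, adjusted p = 0.656) and Trim25 (0.35, adjusted p = 0.732). For the interaction, the difference of the infarction effect between the times, 0 of 31 members and 0.0% of all genes passed, with 3 members under an unadjusted p of 0.05, against 10.5% of all genes. Those 3 were Tapbp (0.47), Trim25 (0.62) and Cxcl10, with adjusted p of 0.327, 0.339 and 0.373. A second Tapbp probe set went the other way, with infarction differences of -0.08 in the wake groups and 0.05 in the sleep groups. The Cxcl10 interaction, positive under the alternatives in which it was tested, ran from 0.33 to 1.88 over them. It rests on the wake MI values through which Cxcl10 passed the level filter, so it is not independent of that filter. The wake call of Cxcl10, Cxcl9 and Irf8 and its absence in the sleep groups was therefore not shown to be a difference between times. The median 95% interval of the members reached 0.38 to either side at one time and 0.53 for the interaction, which is the precision that 3 arrays a group gave for a typical member.

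In sham hearts 0 of 31 members passed between the times, against 1.52% of all genes, and 3 were under an unadjusted p of 0.05, against 13.4%. Those were Cxcl10 (lower in wake sham, by an amount that ran from -1.56 to -0.21 with the setting, adjusted p = 0.230), Cxcl9 (wake minus sleep -0.39, adjusted p = 0.349) and Ifnar2 (0.24, adjusted p = 0.355). Of the 31 values 28 were below 0, where 46.3% of all genes were, and the median was -0.20 against 0.02 over all genes. The exceptions above 0 were Ifnar2, Rsad2 and Irf5, and a second Ifnar2 probe set above the level filter gave -0.01. Many members moved together in single hearts, so the 31 values are not separate observations, and the set was not tested. Sleep sham replicate 2 was the highest of its group in 20 of 31 members and replicate 3 the lowest in 18. The member median was -0.15 without sleep sham replicate 2 and -0.09 when the beta-actin ratio was added to the fit. Without sleep sham replicate 3, which with wake sham replicate 3 had high atrial markers (summed signals of 7415 and 14971 against 1222 to 3239 on the other arrays), Igtp passed at -0.67 (adjusted p = 0.0106). These differences share the sham arrays with the infarction comparisons, so the members' values in them are not independent.

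The members differed more between mice of a group than most genes did. The SD between arrays of a group, pooled over the groups on the log2(signal + 16) scale, had a median of 0.25 over the members and 0.18 over all genes tested, and 27 of 31 members were above the latter. Over the 90th percentile of all genes lay 9 members (29.0%, where 10% do by definition), and 10 when each was set against genes in the same bin of signal level (4 bins). Ifit1 had the highest SD (0.65, the 99.6th percentile), followed by Rsad2 (0.51), Iigp1 (0.46), Gbp3 (0.45), Ifit2 (0.38), Gbp2 (0.38) and Ifit3 (0.37). By role, the medians were 0.38 in the GTPases, 0.34 in the antiviral effectors, 0.19 in the receptors and 0.19 in the transcription factors. Ifnar2 (0.10), Tapbp (0.12) and Irf5 (0.14) varied least. Some cell type marker lists varied as much or more, with median SDs of 1.29 for atrial muscle, 0.49 for neutrophils, 0.31 for fibroblasts and 0.26 for monocytes and macrophages. Endothelium (0.24), dendritic cells (0.23, 2 genes tested) and cardiomyocytes (0.16) varied less. A wide spread was therefore not particular to the members. This is a description of 12 arrays, with no test.

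**Figure D3:**
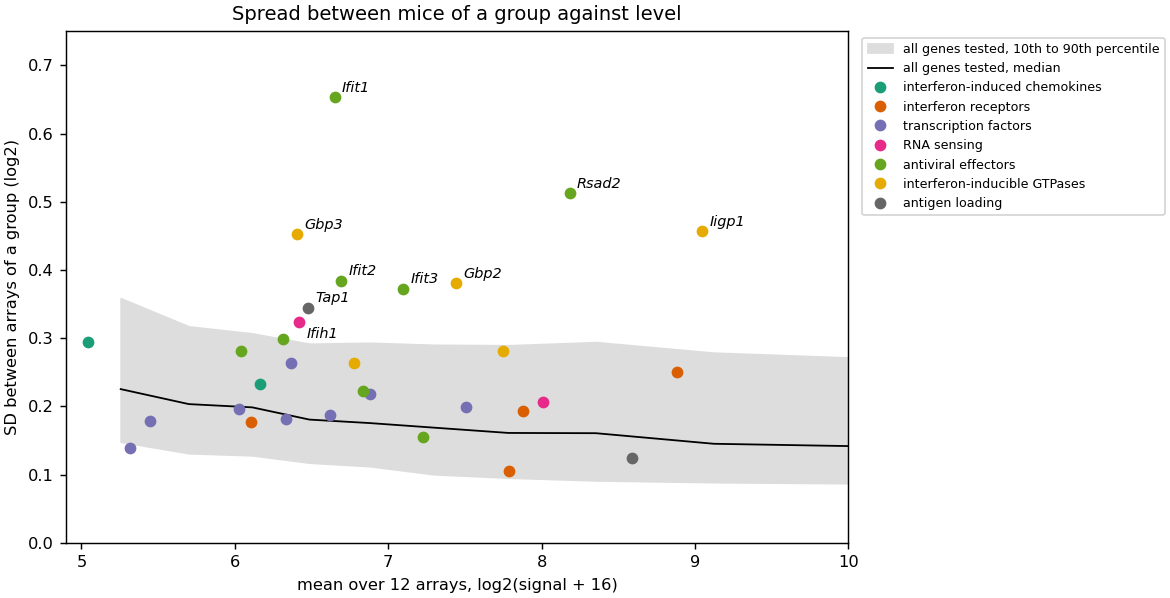
SD between arrays of a group (log2 scale) against the mean over 12 arrays of log2(signal + 16) for the members, coloured by role; the line is the median and the band the 10th to 90th percentile of all genes tested at that level. Ifit1, at an SD of 0.65, Rsad2, Iigp1 and Gbp3 lie far above the band, and no receptor chain or transcription factor lies above it.

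Much of the spread followed single hearts, though not alike in every role. Wake MI replicate 1 was the lowest of its group in 18 of 31 members (58.1%, against 32.1% of all genes) and in 6 of the 8 effectors, whose median deviation from the group mean was -0.55 there. Wake MI replicate 3 was the highest of its group in all 5 GTPases (against 37.4% of all genes), with a median deviation of 0.41. Sleep sham replicate 2 was the highest in 20 of 31 members (64.5%, against 30.6% of all genes), at 0.43 for the GTPases, and sleep sham replicate 3 was the lowest in 18 (58.1%, against 34.8%), at -0.51 for the GTPases. The 4 receptor chains ran the other way in sleep sham, with replicate 3 the highest in all 4 and replicate 2 the lowest in 3. Beta-actin ratios were 2.33 in wake MI replicate 1, 3.31 in wake MI replicate 3, 2.11 in sleep sham replicate 2 and 1.94 in sleep sham replicate 3. Neutrophil sums were 2762, 1343, 2038 and 516 in the same order, and the part of either measure was not tested.

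**Figure D4:**
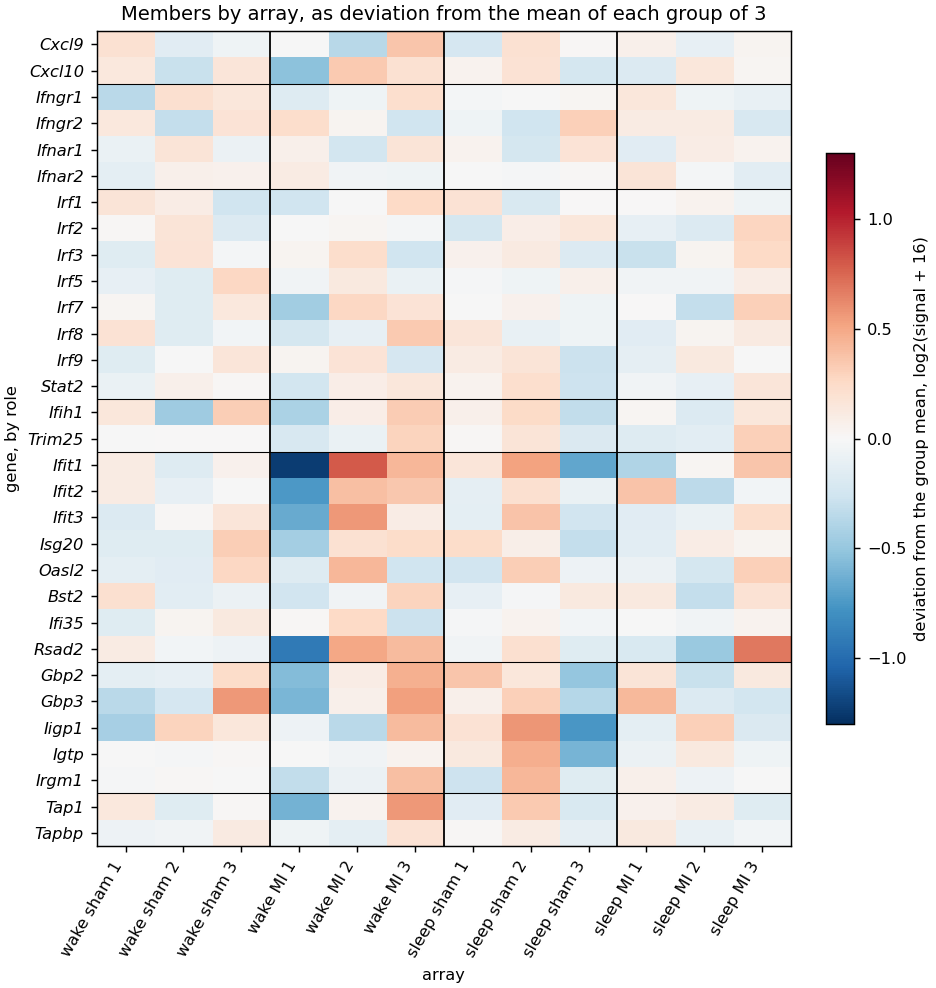
Deviation of each member from the mean of its group of 3 arrays, in log2(signal + 16), with members in rows by role and the 12 arrays in columns. Wake MI replicate 1 is blue (low) over most of the antiviral effectors, with Ifit1 and Rsad2 the darkest, and sleep sham replicates 2 and 3 differ in opposite directions over the GTPases.

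Without wake MI replicate 1, 6 members were called higher in wake MI than in wake sham, against 7.17% of all genes. These were Cxcl10 (1.32), Ifit2 (0.83), Irf8 (0.65), Cxcl9 (0.71), Irf7 (0.57) and Ifit1 (0.93), with adjusted p from 0.00138 to 0.0457, and the member median was 0.19 in place of 0.06. The choice of that array came after its values were seen, so these 6 calls describe the other 5 arrays and are no separate test.

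Other genes of the pathway gave a mixed account. Of 117 further genes listed, 88 had a single-symbol probe set and 65 were tested, and over both times 5 rose and 6 fell (median -0.04), beside 8.49% higher and 13.6% lower of all genes. The interferons themselves were at the low end. All 9 on the array were under the level filter, with means of 0.766 for Ifng and 6.86 for Ifnb1, so their levels were not readable here. Of JAK-STAT and feedback genes 3 of 9 rose, the kinases Jak1 (0.24, adjusted p = 0.0205) and Jak2 (0.42, adjusted p = 0.0114) and the phosphatase Ptpn2 (0.66, adjusted p = 0.00539), which dephosphorylates JAK and STAT proteins. Ptpn2 had 422, 584 and 678 in wake MI against 271, 334 and 269 in wake sham, and 511, 421 and 547 in sleep MI against 341, 498 and 278 in sleep sham, with overlap at the sleep time alone.

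Of nucleic acid sensing genes 1 of 7 rose, the adaptor Myd88 (0.55, adjusted p = 0.00660), and 1 fell, the ubiquitin ligase Rnf135 (-0.34, adjusted p = 0.0285). Among 33 further effectors, Ifitm2, a membrane protein that blocks virus entry, rose (0.43, adjusted p = 0.0276), and the ubiquitin ligase Trim21 (-0.53, adjusted p = 0.00327) and Trim34a (-0.62, adjusted p = 0.00470) fell. The Ifitm2 difference was 0.82 in the wake groups (means of 1767 in MI and 998 in sham). At the sleep time its means were alike, 1667 in MI and 1672 in sham. Trim21 had 43.6, 62.3 and 62.0 in wake MI against 96.0, 93.1 and 88.4 in wake sham, and 50.6, 58.2 and 74.8 in sleep MI against 96.9, 96.6 and 75.8 in sleep sham, with no overlap at either time. Of 16 antigen processing genes 0 rose and 3 fell, the immunoproteasome subunits Psmb9 (-0.40, adjusted p = 0.00440) and Psmb8 (-0.33, adjusted p = 0.0452) and the peptide-loading chaperone Pdia3 (-0.37, adjusted p = 0.00630).

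In the wake groups alone 6 of the 65 rose and 6 fell, beside 7.79% and 10.7% of all genes, and in the sleep groups 0 were called, beside 2.65%. Beside genes named above, Tlr7, the endosomal sensor of single-stranded RNA (0.49, adjusted p = 0.0398), and the nucleic acid sensor Zbp1 (0.59, adjusted p = 0.0412) rose, and Uba7, the activating enzyme of Isg15 (-0.63, adjusted p = 0.0229), fell. The spread between mice was also wide in these further effectors, with 11 of 33 over the 90th percentile of all genes and a median SD of 0.25, against 0.18 in the 9 JAK-STAT and feedback genes.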

How the data were processed

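Heart RNA from 12 mice was hybridised to 1-colour Affymetrix arrays. Each deposited value is the linear intensity of a probe set, which the authors computed with MAS5, according to the submitters' processing notes. Its version and settings, detection calls and any batch or scan date were not given in the sources used here. Every array had a mean of 150.1 after trimming 2% at each end, and no further scaling was applied. The number of arrays limits the precision.

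Of 22690 probe sets, 20380 carried 1 gene symbol, 691 several and 1555 none, after setting aside 64 controls. Each gene took its brightest probe set by mean log2(signal + 16), and genes under the 40th percentile (signal 16.8) were not tested. Groups were compared with limma 3.58.1 (R 4.3.3): lmFit with a mean per group over 12 arrays, contrasts, eBayes with trend, two-sided, with Benjamini-Hochberg adjustment over 8101 genes and calls at adjusted p below 0.05. The code was tested on simulated data. For 3 arrays against 3 an exact permutation test cannot go below p = 0.1.

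All members are named. Of the other pathway genes, all those called are named, beyond the planned limit of 8 per comparison by adjusted p. Members, roles, pathway and marker lists were chosen with earlier results of these data known. Alternatives were the pseudocount (1, 64), the level filter (none, 60th percentile), quantile normalization, median centring, averaging all probe sets of a gene, no trend, a replicate block, the beta-actin ratio as a covariate, only the groups compared, each array left out, and, added after seeing the data, both sham arrays with high atrial markers left out. Promoter windows are from RefSeq (GRCm38.p6).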

Additional observations from a re-analysis of the deposited data

How the results depend on the processing

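Of the 4 members called over both times, 1 (Gbp2) remained called with the level filter at the 60th percentile, which leaves Cxcl9, Cxcl10 and Irf8 untested, and 1 (Gbp2) with the beta-actin covariate. Leaving out single arrays gave 2 to 5, with 2 without wake sham replicate 3 or sleep MI replicate 2. Of the 3 called in the wake groups, 0 were called under each of these 2 settings, 1 (Cxcl10) without both sham arrays with high atrial markers, and 1 to 6 without single arrays (1 without replicate 3 of either wake group, 6 without wake MI replicate 1). Between the shams 0 became 1 (Igtp) without both high-atrial arrays and 0 to 1 without single arrays (sleep sham replicate 3). The cause of these changes, other than the filter, was not tested. The other alternatives gave 3 to 4 members over both times, 2 to 3 in the wake groups and 0 in the other comparisons. The differences called or under an unadjusted p of 0.05 kept their sign in the alternatives run. Of the others over 0.3, sign changed for Ifit1 (wake, -0.19 with the beta-actin covariate and -0.08 without wake MI replicate 2; interaction, -0.00 without that array), Trim25 (wake, -0.09 with the covariate) and Irf8 (interaction, -0.08 with probe sets averaged). Genes called among all those tested ranged from 672 to 1801 over both times, 274 to 1511 (wake), 62 to 289 (sleep), 0 to 10 (infarcted hearts), 30 to 226 (shams) and 0 to 35 (interaction). The number tested was 8101, except where the level filter was changed or probe sets were averaged. The counts of 672 and 274 came with the beta-actin covariate, against 1792 and 1496 in the main fit. Without both high-atrial arrays the same 2 counts were 998 and 856. Same-numbered arrays did not deviate together (correlations from -0.175 to 0.251), so the numbers were not taken as pairs. With the replicate number as a replicate block 4 members were called over both times, 3 in the wake groups and 0 elsewhere, with 1684 and 1415 genes called in the first and second. Low signals, such as those of Cxcl10, and 3 arrays a group limit what can be read.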

Other observations

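Several members had more than 1 probe set above the level filter, and these did not always give the same direction. For Stat2 the brighter probe set gave 0.21 in the wake groups and 0.10 in the sleep groups (infarcted minus sham), and the other -0.06 and -0.18. For Tapbp the brighter gave 0.26 and -0.21 and the other -0.08 and 0.05. For Irf3 the 3 probe sets above the filter gave 0.01, 0.22 and -0.33 in the wake groups and -0.16, -0.19 and -0.32 in the sleep groups. For Rsad2 the 3 gave -0.06, -0.08 and -0.30 in the wake groups and 0.03, 0.05 and -0.21 in the sleep groups. The second probe set of Trim25 above the filter kept both directions of the first, at 0.10 and -0.28 against 0.31 and -0.31. For Iigp1 both probe sets had the same signs, at -0.06 and -0.25 for the brighter and -0.02 and -0.37 for the other.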
